A study of Mus musculus with 193 samples.

Results

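Among the postnatal day 3 (P3) mouse testis cells labelled as knockout (KO) for Rhox10, 16 of 69 cells had a Zbtb16 value of 1 RPM or less (the deposited unit, reads of a gene scaled to the total of the cell), and the other 53 had more than 1 RPM. These 2 sides are called cells without Zbtb16 and cells with Zbtb16 here, and they were chosen by the Zbtb16 value alone. All 16 cells without Zbtb16 came from set A, a letter in the sample titles that the labels do not explain. The 53 cells with Zbtb16 came from set A (5 cells), set B (12 cells) and set C (36 cells). The study profiled 193 single cells by RNA-seq: the 69 P3 cells labelled KO, 71 wild-type (WT) cells of P3 and 53 WT cells of postnatal day 7 (P7). Every cell came from a testis digested with enzymes and was sorted for green fluorescence from Id4-eGFP, a reporter of the Id4 gene that marks spermatogonial stem cells among undifferentiated spermatogonia. Rhox10 is an X-linked homeobox gene, and the labels give for it neither the kind of allele, the strain nor the part of the gene removed. Animals, litters and cultures are not identified either, so each group counts as 1 sample, cells are not replicates, and no p-value is given for any difference. Differences are therefore descriptions of these cells, with the spread between cells beside them.

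Zbtb16 encodes PLZF, a zinc finger repressor with a BTB domain. In the testis it is known as a marker of undifferentiated spermatogonia and is needed to maintain the stem cell pool after birth. It acts beside factors such as SALL4, and undifferentiated spermatogonia also depend on GDNF, a growth factor from Sertoli cells that binds the co-receptor GFRA1 and the receptor tyrosine kinase RET and keeps genes such as Etv5 expressed. Before birth, male germ cells are prospermatogonia that rest outside the cell cycle while DNA methylation is laid down, and they resume division in the first days after birth.

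The Zbtb16 values that set the sides were as follows. Zbtb16 (ENSMUSG00000066687.5, protein-coding, minus strand of chromosome 9, 48654297 to 48836222 in GRCm38) had no read in 8 of the 16 cells without Zbtb16, 1 read in 7 cells and 2 reads in 1 cell. The 2 highest values below the threshold were 0.744 and 0.587 RPM. The 5 cells with Zbtb16 of set A had 4.47, 7.39, 12.4, 18.4 and 46.3 RPM, which came from 24 to 257 reads. The lowest values above the threshold in the whole group were 1.31 and 1.52 RPM, both in set C. The ranges of depth of the 2 sides overlapped. Recovered total reads per cell, the depth behind the deposited values, had a median of 5059320 (1344730 to 9753970) in the 16 cells without Zbtb16 and of 5550430 (3249400 to 8949440) in the 5 cells with Zbtb16 of set A. Reads on genes had a median of 586196 (199923 to 1373770) without Zbtb16, against 803599 (325547 to 1160160) with Zbtb16 in set A. When every cell was thinned to 100000 reads on genes, a Zbtb16 read was left in 2 of 16 cells without Zbtb16, against 5 of 5, 12 of 12 and 36 of 36 cells with Zbtb16 of sets A, B and C. The same split could not be made in WT cells, since 1 of 71 WT P3 cells and 1 of 53 WT P7 cells had 1 RPM or less.

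**Figure D1:**
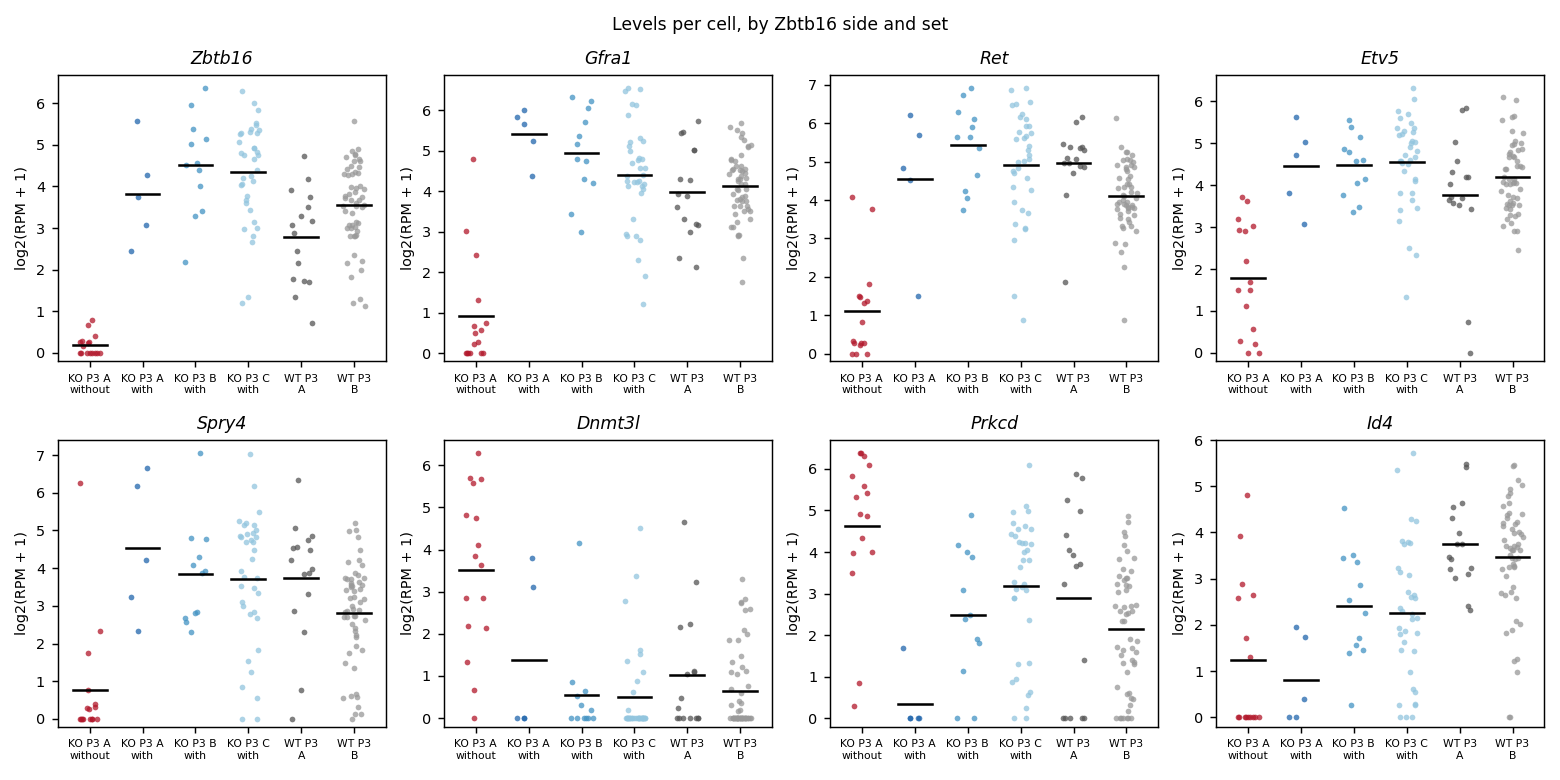
Levels of 8 genes in single cells, as log2(RPM + 1) on the vertical axis, for cells labelled KO without Zbtb16 (red), cells labelled KO with Zbtb16 by set (blues) and WT P3 cells by set (greys). Each point is 1 cell and each bar is the mean over cells. Zbtb16 is shown as the gene that set the sides, and Gfra1 and Ret are near 0 in most of the 16 cells without Zbtb16, whose means are 0.91 and 1.10.

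Several measures of the libraries had close medians on the 2 sides of set A, and the share of spike-in RNA was higher in set A than in the other sets. A median of 6777.5 genes (4952 to 8598) was above 1 RPM in cells without Zbtb16, against 6880 (6741 to 7663) in cells with Zbtb16 of set A. It was 7360 in those of set B and 6902.5 in those of set C. The range was thus wider, and reached lower, without Zbtb16. Spike-in RNA took a median of 14914 RPM (6295 to 27036) in cells without Zbtb16. It took 12921.5 RPM (6841 to 16430) in cells with Zbtb16 of set A, against 8120 RPM in those of set B and 8550 RPM in those of set C. Both sides of set A thus had medians above those of the other sets. In WT P3 cells it was 11969 RPM in set A and 7465 RPM in set B. Over all cells labelled KO, Zbtb16 and the set cannot be told apart on the side without Zbtb16, which is why each result is given inside set A first. Inside set A the side with Zbtb16 is 5 cells, and the range left by leaving out each of the 5 in turn stands beside the main differences.

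The label of germ cells was checked against Ddx4, an RNA helicase of germ cells, and Dazl, a germ cell RNA-binding protein. Ddx4 was at 2.35, 141 and 418 RPM (lowest, median, highest) in the 16 cells without Zbtb16, against 21.04, 133, 134, 165 and 203 RPM in the 5 cells with Zbtb16 of set A. Dazl was at 9.98, 592 and 1265 RPM in cells without Zbtb16, against 385, 509, 591, 671 and 692 RPM in cells with Zbtb16 of set A. Both genes were above 1 RPM in all 69 cells. The differences inside set A were 0.02 for Ddx4 and -0.17 for Dazl in mean log2(RPM + 1), the scale of every difference below. A difference is the mean level over cells without Zbtb16 minus the mean over cells with Zbtb16, and a positive value means higher without Zbtb16. Without cell 19 of set A, described next, the differences were 0.36 for Ddx4 and 0.20 for Dazl. Without the cells high in Sertoli cell markers, also described next, they were 0.95 and 0.755. Against the mean of the 3 sets with Zbtb16 they were -0.98 and -0.57.

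One cell without Zbtb16, cell 19 of set A, went against the germ cell label. It held both lowest values, 2.35 RPM for Ddx4 and 9.98 RPM for Dazl, and the highest of the 69 cells for Clu, a Sertoli cell marker, at 1411 RPM. It also held the highest Sox9, a transcription factor of Sertoli cells, at 164 RPM. Cell 4 of set A, with Zbtb16, had 182 RPM of Clu, but also 133 RPM of Ddx4 and 509 RPM of Dazl. The summed value of the Sertoli cell markers Clu, Wt1 and Sox9 was above 10 RPM in 11 of 16 cells without Zbtb16, against 2 of 5, 0 of 12 and 6 of 36 cells with Zbtb16 of sets A, B and C. The 0 of 12 allows a share of up to 25%. Its median was 30.6 RPM in cells without Zbtb16, against 1.54 RPM in cells with Zbtb16 of set A. The whole Sertoli cell list of 20 genes had a summed value between 28.98 and 3028 RPM without Zbtb16, against between 39.9 and 781 RPM with Zbtb16 in set A, and at most 74.9 RPM in set B and 78.3 RPM in set C. Without cell 19 the highest sum on the side without Zbtb16 was 168 RPM, and Amh, Fshr and Nr5a1 were listed at 0 in all 15 cells. Of the 17 Sertoli cell markers measured inside set A, 1 was higher and 3 were lower by 1 or more without Zbtb16 (median -0.29), so the list did not move as one. Sox9 was higher by 1.43 and Sox8, a related factor, lower by 1.75. Values without cell 19, and with the 11 and the 2 cells of set A above that sum left out (5 cells without and 3 with Zbtb16 remain), stand beside the genes and lists described at length below.

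**Figure D2:**
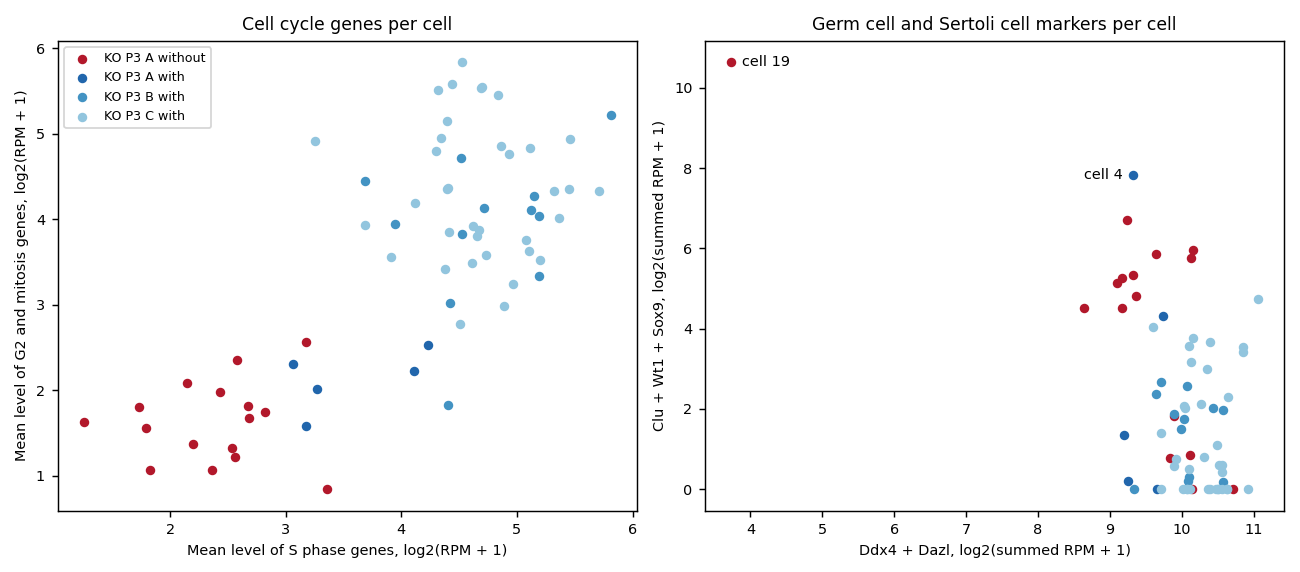
Left, the mean level of the S phase list (horizontal axis) against that of the G2 and mitosis list (vertical axis), both in log2(RPM + 1); right, log2(summed RPM + 1) of Ddx4 and Dazl (horizontal) against that of Clu, Wt1 and Sox9 (vertical). Each point is 1 cell labelled KO, red without Zbtb16 and blue with Zbtb16 by set. All 5 cells with Zbtb16 of set A lie between 1.58 and 2.53 for G2 and mitosis genes, and cell 19 stands alone at the upper left of the right panel.

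Myoid and stromal markers had a list median above 0 inside set A, but it did not keep that sign under every alternative setting (lowest -0.10). Of 7 measured inside set A, 3 were higher and 1 lower by 1 or more (median 0.92), and the median was 0.60 without cell 19 and 0.28 without the cells high in Sertoli cell markers. Over all genes at that level (mean level 0.5 or more, as for every list below) 7.11% were higher and 15.4% lower, with a median of -0.17. Myoid and stromal markers (14 genes) summed to a median of 30.2 RPM (2.71 to 742) without Zbtb16, against 17.8 RPM (2.32 to 39.4) with Zbtb16 in set A. Of these, Acta2, the actin of myoid cells, was above 1 RPM in 5 of 16 cells without Zbtb16 and listed at 0 in the 5 cells with Zbtb16 of set A. Without cell 19 the highest sum was 64.8 RPM. Endothelial markers (8 genes) summed to a median of 20.3 RPM (0.587 to 73.8) against 25.6 RPM (1.44 to 61.3), and leukocyte markers (6 genes) to 2.26 RPM (0 to 9.69) against 8.72 RPM (0 to 22.2). Leydig markers (5 genes) had a median of 0 on both sides, with a highest sum of 24.1 RPM without Zbtb16 and 3.25 RPM with it in set A, and erythroid markers (3 genes) had a highest sum of 25.9 RPM without Zbtb16 and 0 with it. Spermatid and spermatocyte markers (10 genes) summed to 10.4 RPM (0 to 40.9) without Zbtb16 and 8.31 RPM (0 to 14.2) with it in set A. Cyp17a1, a Leydig cell marker, and the leukocyte markers Ptprc, Csf1r and Tyrobp were listed at 0 in all 16 cells without Zbtb16. This allows a share of up to 18.8% of cells with each of these genes. Other members of both lists were present there. The Leydig markers Star and Cyp11a1 were above 1 RPM in 5 and 2 of the 16 cells, against 1 and 0 of 5 with Zbtb16 in set A. Of the 6 leukocyte markers, 3 were above 1 RPM in at least 1 of the 16 cells. The part of any of these markers in the results was not tested.

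Id4, the gene of the sorting reporter, and Rhox10, the targeted gene, differed by less than the spread between cells on the 2 sides of set A. Id4 was at 0 in 9 of 16 cells without Zbtb16 and at most 26.9 RPM, against 0, 0, 0.308, 2.32 and 2.88 RPM with Zbtb16 in set A. Its mean level was 1.24 without Zbtb16. It was 0.81, 2.41 and 2.25 with Zbtb16 in sets A, B and C, against 3.75 (set A) and 3.46 (set B) in WT P3 cells. Both sides of set A were thus below every other set of P3 cells. Rhox10 had a median of 4.79 RPM (0 to 31.9) without Zbtb16, against 0.575, 1.12, 9.13, 11.4 and 12.8 RPM with Zbtb16 in set A, so RNA of the targeted gene was present on both sides under the label of knockout. Its mean level was 2.47 without Zbtb16, against 2.499, 2.62 and 0.83 with Zbtb16 in sets A, B and C.

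Inside set A, 4837 genes had a mean level of 2 or more, and 261 (5.4%) were higher and 1060 (21.9%) were lower by 1 or more in cells without Zbtb16. Over the 3 sets, where the reference is the unweighted mean of the 3 set means of cells with Zbtb16, 145 of 4884 genes (2.97%) were higher and 973 (19.9%) lower. Part of that imbalance moved with the scale. After rescaling each cell to stably detected genes, 374 were higher and 977 lower inside set A, and 356 higher and 553 lower over the 3 sets. Scaled to reads on genes alone, 890 were higher and 2247 lower over the sets. The median of all genes was -0.32 inside set A and -0.39 over the sets as deposited, and rescaling shifted it by 0.14 and 0.33, so differences are best read against these medians. Without cell 19, 299 of 4856 genes (6.16%) were higher and 1049 (21.6%) lower inside set A, and 178 of 4900 (3.63%) higher and 950 (19.4%) lower over the sets. Separation of single cells was rare: of the 4837 genes, 0 had all cells without Zbtb16 above all cells with Zbtb16 of set A, and 1 (0.0207%) had all of them below. That gene was Galnt12, an enzyme that starts mucin-type O-glycosylation, at 0 to 6.09 RPM in cells without Zbtb16 against 11.8, 16.6, 20.3, 25.5 and 37.1 RPM in cells with Zbtb16 of set A.

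**Figure D3:**
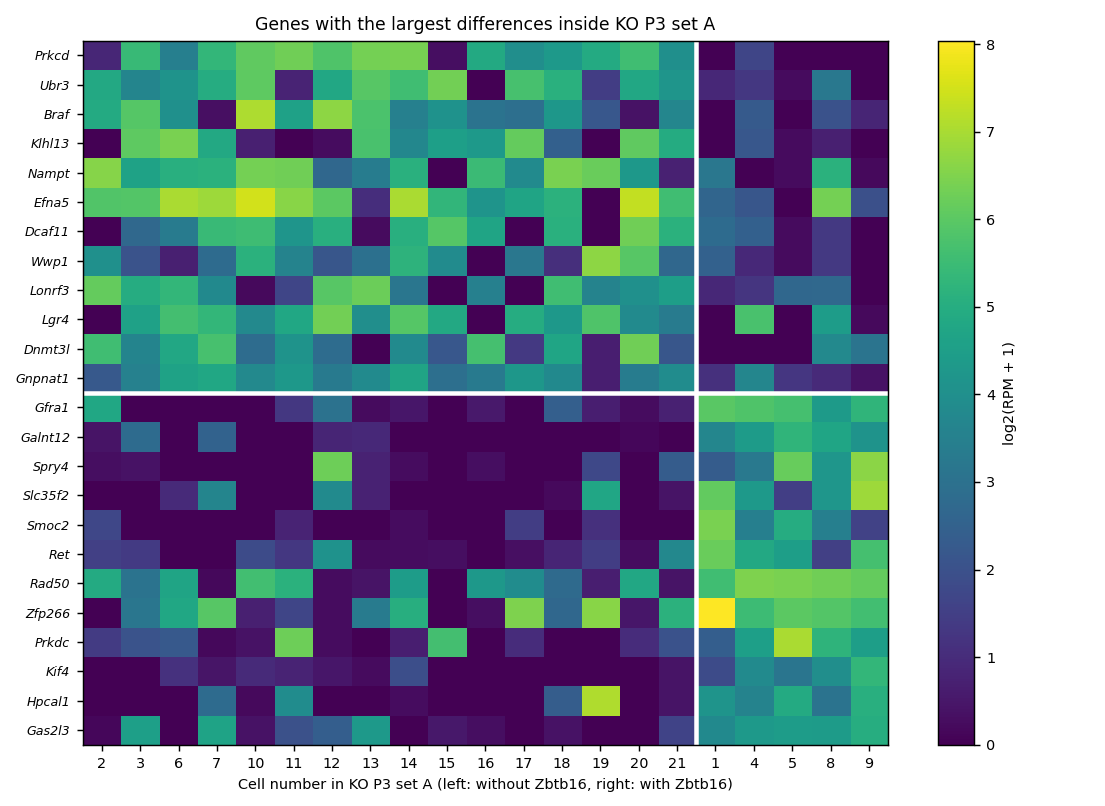
Levels, as log2(RPM + 1) by colour, of the 12 genes with the highest and the 12 with the lowest difference inside set A (rows) in its 21 cells (columns, by cell number). The white lines part the 16 cells without Zbtb16, on the left, from the 5 cells with Zbtb16, and the higher genes from the lower ones. These genes were picked for their difference, so the contrast of the blocks is what picked them, while the scatter within the left blocks shows how far single cells depart from it.

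The GDNF receptor genes had the lowest differences among the stem cell genes. Gfra1 (ENSMUSG00000025089.15, chromosome 19, 58235604 to 58455909, minus strand), the GDNF co-receptor, was at 0, 0.304 and 26.7 RPM (lowest, median, highest) in the 16 cells without Zbtb16. The 5 cells with Zbtb16 of set A had 19.7, 37.1, 49.7, 56.2 and 63.0 RPM. Of the 16 cells, 1 (cell 2) reached the range of the 5, and the next highest value was 7.15 RPM. The mean level was 0.91 ± 1.37 without Zbtb16 (SD between cells, n = 16 cells), against 5.43 ± 0.65 (n = 5), 4.95 ± 1.08 (n = 12) and 4.402 ± 1.28 (n = 36) with Zbtb16 in sets A, B and C. This was the lowest difference of both comparisons, -4.52 inside set A (-4.78 to -4.37 when 1 of the 5 cells was left out) and -4.02 over the sets. At 100000 reads per cell a Gfra1 read was seen in 8 of 16 cells without Zbtb16, with 1.88 reads on average, against 5 of 5 cells with 29.6 reads in set A. The difference was -4.50 without cell 19 and -3.93 without the cells high in Sertoli cell markers. With a Zbtb16 threshold of 0 RPM, which leaves 8 cells without and 13 with Zbtb16 in set A, it was -1.43, and that of Ret was -1.38.

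Ret (ENSMUSG00000030110.13, chromosome 6, 118151745 to 118197718, minus strand), the receptor kinase that pairs with GFRA1, was at 0, 0.518 and 16.05 RPM without Zbtb16. With Zbtb16, set A had 1.85, 21.98, 27.6, 50.4 and 73.3 RPM, so the lowest of the 5 cells was reached by 4 of the 16. The difference was -3.46 inside set A (-4.22 to -3.04) and -3.87 over the sets. Etv5 (ENSMUSG00000013089.15, chromosome 16, 22381309 to 22439719, minus strand), an ETS factor kept up by GDNF, was chosen after its values were seen. It had 0, 2.04 and 12.1 RPM without Zbtb16, against 7.39, 13.1, 25.3, 31.6 and 48.8 RPM with Zbtb16 in set A, where 3 of the 16 cells reached the lowest of the 5. Its mean level was 1.78 ± 1.33 (SD, n = 16 cells) without Zbtb16, against 4.45 ± 1.02 (n = 5) with Zbtb16 in set A, a difference of -2.67 (-3.02 to -2.38). Gfra1 and Ret had medians below 1 RPM in the 16 cells, whereas Etv5 was lower but still above 1 RPM in 11 of them. With Zbtb16, the Etv5 means of sets A, B and C were 4.45, 4.48 and 4.55. Without cell 19 the Ret and Etv5 differences inside set A were -3.48 and -2.63, and without the cells high in Sertoli cell markers -3.13 and -2.57.

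Of the 21 stem cell genes, 14 were measured inside set A, and 7 of them were lower and 0 higher by 1 or more without Zbtb16. The list median was -0.98, where 15.4% of all genes were lower and 7.11% higher, with a median of -0.17. Besides the 3 genes above, the lower ones were Tcl1 (-1.84), a co-activator of AKT kinase, Cd9 (-1.42), a tetraspanin on the surface of stem cells, and the adhesion genes Epcam (-1.38) and Itgb1 (-1.10). Cd9 was still clearly present without Zbtb16, at a median of 26.7 RPM (0.744 to 99.1), against 37.5 to 107 RPM with Zbtb16 in set A. Id4 (0.43) and Tspan8 (0.65), a tetraspanin of stem cells, lay on the other side of 0. Over the 3 sets 9 of 16 measured genes were lower and 0 higher, where 12.6% of all genes were lower and 4.21% higher. In single cells the mean level of the list was 0.80 to 2.08 without Zbtb16, against 1.94 to 2.55 with Zbtb16 in set A, and 1 of the 16 cells (cell 12) reached the range of the 5. The list median stayed below 0 under each of the 18 alternative settings inside set A, from -1.71 to -0.09. These include the settings that change the level filter for counted genes, which cannot move a list median. Without cell 19 it was -0.84, with 7 of 15 measured genes lower and 0 higher, where 15.5% of all genes were lower and 7.74% higher. Without the cells high in Sertoli cell markers it was -0.82.

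Further down the same pathway, single genes differed. The GDNF and FGF list as a whole had shares near those of all genes inside set A when every cell was kept. Spry4, a feedback inhibitor of receptor tyrosine kinases, was at 0 in 8 of the 16 cells without Zbtb16, with a median of 0.101 RPM and 1 cell (cell 12) at 76.0 RPM. The 5 cells with Zbtb16 of set A had 4.03, 8.49, 17.5, 71.5 and 99.0 RPM. The difference was -3.75 inside set A (-4.30 to -3.22) and -3.25 over the sets, and 2 of the 16 cells reached the lowest of the 5. It was -3.81 without cell 19 and -5.50 without the cells high in Sertoli cell markers. Fgfr1, an FGF receptor, was higher by 1.85 and Frs2, its docking protein, by 1.78. Fgfr1 was above 1 RPM in 16 of 16 cells without Zbtb16, at 1.17, 5.55 and 42.4 RPM, against 3 of 5 cells with Zbtb16 of set A, at 0, 0.288, 1.56, 2.34 and 4.31 RPM. With Zbtb16, however, sets B and C had it above 1 RPM in 12 of 12 and 30 of 36 cells. After thinning, Fgfr1 had 8.75 reads on average without Zbtb16, against 1, 4.08 and 4.19 with Zbtb16 in sets A, B and C. Over the sets the differences were smaller, at 0.97 for Fgfr1 and 1.07 for Frs2. In the GDNF and FGF list as a whole, 4 of 21 measured genes were lower and 2 higher inside set A, where 15.4% and 7.11% of all genes were. Its median was -0.50, or -0.24 without the cells high in Sertoli cell markers, and 15 genes differed by less than 1. Etv4 (-1.28), an ETS factor, was among the 4, while Dusp6, a phosphatase of ERK, lay at -0.95. Without cell 19, 6 of 22 measured genes were lower and 2 higher inside set A, where 15.5% and 7.74% of all genes were. Over the sets 8 of 20 were lower and 2 higher (median -0.35), where 12.6% and 4.21% of all genes were.

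Among progenitor factors and partners of PLZF, 8 of 16 measured genes were lower by 1 or more and 1 higher, with a median of -0.60, where 15.4% of all genes were lower and 7.11% higher. Sall4, a zinc finger factor that binds PLZF, was lowered but not lost. It had 1.17, 90.3 and 457 RPM without Zbtb16, against 72.0, 226, 296, 329 and 436 RPM with Zbtb16 in set A, where 10 of the 16 cells reached the lowest of the 5. The differences were -1.83 for Sall4, -2.19 for Glis3, a Krüppel-like factor of spermatogonia, -1.07 for Foxo1, a forkhead factor of stem cells, and -1.34 for Lin28a, an RNA-binding protein of undifferentiated cells. Bmi1, a Polycomb gene, was higher by 1.22. Dmrt1, a factor that holds back meiosis, lay at 0.57. The list median depended on the scale, as it was 0.11 when scaled to reads on genes alone, 0.05 after thinning and -0.01 without cells 19 and 4, and no direction is therefore given for the list inside set A. Of 17 measured genes for co-repressors of PLZF, 4 were lower and 1 higher (median -0.15), with the histone deacetylase gene Hdac4 at -1.69. Over the sets Hdac4 lay at -0.70 and Lin28a at -0.87. Of 19 measured genes for other BTB proteins with zinc fingers or like partners, 2 were lower and 2 higher (median 0.01). These 2 lists are near or little above the shares of all genes.

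Other genes among the 12 lowest inside set A included genes for DNA repair and for solute handling. Rad50, a part of the complex that senses double-strand breaks, was at 0, 10.8 and 47.95 RPM without Zbtb16, against 46.9, 69.3, 77.6, 84.1 and 88.3 RPM with Zbtb16 in set A, a difference of -3.33 (-3.48 to -3.26). Of the 16 cells, 1 (cell 10) reached the lowest of the 5. With a Zbtb16 threshold of 0 RPM, which leaves 8 cells without Zbtb16, the Rad50 difference had the other sign, at 0.46. It was -3.19 without cell 19 and -2.43 without the cells high in Sertoli cell markers. Prkdc, the catalytic subunit of DNA-dependent protein kinase, differed by -3.29 and Kif4, a chromokinesin, by -3.22. Slc35f2, a solute carrier, differed by -3.68, Smoc2, a secreted matrix protein, by -3.65, the zinc finger gene Zfp266 by -3.30, Hpcal1, a calcium sensor, by -3.09 and Gas2l3, a linker of actin and microtubules, by -3.07. For Galnt12, Prkdc, Hpcal1 and Gas2l3 the cells with Zbtb16 of sets B and C also lay well below those of set A. After thinning, Prkdc had 6.81 reads on average without Zbtb16, against 28, 7.58 and 7.06 with Zbtb16 in sets A, B and C. It was above 1 RPM in 8 of 16 cells without Zbtb16, against 5 of 5, 9 of 12 and 29 of 36. Its difference over the sets was -1.96. Galnt12 had mean levels of 4.44, 1.54 and 1.42 with Zbtb16 in sets A, B and C, against 0.48 without Zbtb16.

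Prkcd was the gene with the highest difference inside set A. Prkcd (ENSMUSG00000021948.17, chromosome 14, 30595354 to 30626210, minus strand), which encodes the kinase PKC delta, had 0.220, 34.1 and 82.3 RPM without Zbtb16, against 0, 0, 0, 0 and 2.23 RPM with Zbtb16 in set A. It was above 1 RPM in 14 of 16 cells, against 1 of 5, and after thinning in 16 of 16 cells, against 0 of 5, which allows a share of up to 60% at that number of cells. The difference was 4.29 (4.20 to 4.63). With Zbtb16, however, sets B and C had it above 1 RPM in 10 of 12 and 29 of 36 cells, with mean levels of 2.48 and 3.18 against 0.34 in set A. Its difference was 0.87 inside set A with a Zbtb16 threshold of 0 RPM, and 2.63 over the sets, and it was 4.27 without cell 19 and 3.70 without the cells high in Sertoli cell markers. The mean level without Zbtb16 was 4.63, above that of each of the 3 sets, and the mean of the 5 cells of set A was below those of sets B and C.

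Dnmt3l, Efna5 and Klhl13 were among the 12 highest genes inside set A. All 12 were picked to be higher without Zbtb16 against each of the 3 sets. Dnmt3l (ENSMUSG00000000730.13, chromosome 10, 78041947 to 78063622, plus strand), the cofactor of de novo DNA methylation in prospermatogonia, had 0, 12.4 and 77.3 RPM without Zbtb16. The cells with Zbtb16 of set A had 0, 0, 0, 7.58 and 12.9 RPM. It was above 1 RPM in 14 of 16 cells without Zbtb16 (87.5%, exact 95% interval 61.7% to 98.4%), against 2 of 5, 1 of 12 (8.33%) and 7 of 36 (19.4%) cells with Zbtb16 of sets A, B and C, intervals that cover counting error only. Its mean level was 3.53 ± 1.91 (SD, n = 16 cells) without Zbtb16, against 1.38 ± 1.91 (n = 5), 0.56 ± 1.17 (n = 12) and 0.50 ± 1.06 (n = 36). The difference was 2.15 inside set A (1.80 to 2.75) and 2.71 over the sets, and 1.73 inside set A without the cells high in Sertoli cell markers. Of the 16 cells, 8 lay within the range of the 5. With every cell kept, the rest of the prospermatogonial list did not follow Dnmt3l inside set A. Of 21 measured genes, 1 was higher and 2 lower by 1 or more (median 0.02), where 7.11% and 15.4% of all genes were. The 2 lower ones were Uhrf1 (-2.54), which keeps methylation in place through DNA replication, and Tdrd1 (-1.84), a Tudor protein of the piRNA pathway. Without cell 19, 3 of the 21 were higher and 2 lower (median 0.19), where 7.74% and 15.5% of all genes were. The list median was 0.49 without the cells high in Sertoli cell markers.

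Efna5, an ephrin ligand on the cell surface, had 0, 57.9 and 178 RPM without Zbtb16, against 0, 2.94, 3.46, 5.18 and 81.6 RPM with Zbtb16 in set A, a difference of 2.75 (2.09 to 3.68). Over the sets it was the highest of all, at 3.20. Klhl13, an adaptor of the cullin 3 ubiquitin ligase, had 0, 20.7 and 85.2 RPM without Zbtb16, against 0, 0, 0.180, 0.615 and 3.58 RPM with Zbtb16 in set A, a difference of 2.89. Without cell 19 the differences were 3.11 for Efna5 and 3.13 for Klhl13, and without the cells high in Sertoli cell markers 3.18 and 2.35. Both were below 10 RPM on average with Zbtb16 in sets B and C, at 7.79 and 8.97 RPM for Efna5 and at 6.73 and 1.49 RPM for Klhl13. The remaining genes of the highest 12 were Ubr3 (3.15), Braf (2.94), Nampt (2.76), Dcaf11 (2.304), Wwp1 (2.26), Lonrf3 (2.17), Lgr4 (2.15) and Gnpnat1 (2.10). Lgr4 had the other sign at a Zbtb16 threshold of 0 RPM (-0.76). Braf encodes a kinase upstream of MEK, Nampt an enzyme of NAD synthesis, Lgr4 a receptor for R-spondins and Ubr3 and Wwp1 ubiquitin ligases. Over the sets the differences of these genes were all smaller than inside set A. They were 1.66 for Ubr3, 1.77 for Braf, 1.65 for Nampt, 1.20 for Dcaf11 and 1.32 for Wwp1. Lonrf3 lay at 1.63, Lgr4 at 2.07 and Gnpnat1 at 0.92. For Braf and Ubr3 the low values were those of set A with Zbtb16, as mean levels were 3.96 and 4.28 without Zbtb16, against 1.02 and 1.13 in set A, 3.02 and 3.36 in set B and 2.54 and 3.36 in set C.

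Genes of S phase were lower without Zbtb16 inside set A and over the sets. All 24 S phase genes were measured, and 13 were lower and 0 higher by 1 or more inside set A (median -1.11), where 15.4% of all genes were lower. Over the sets 20 were lower (median -1.94), where 12.6% of all genes were. Mcm3, a subunit of the replicative helicase, had 0, 1.53 and 154 RPM without Zbtb16, against 4.31, 32.6, 51.3, 56.6 and 79.2 RPM with Zbtb16 in set A. The 154 RPM was in cell 19, and the next highest value was 16.6 RPM. The difference was -3.01 inside set A (-3.68 to -2.696), -3.36 without cell 19 and -3.97 over the sets. Mcm5, another helicase subunit, lay at -2.69 and Mcm2 at -2.01. In single cells the mean level of the list lay between 1.26 and 3.35 without Zbtb16, against between 3.07 and 4.23 with Zbtb16 in set A, with lowest values of 3.69 and 3.25 in sets B and C. Of the 16 cells, 2 reached the range of set A. Without cell 19, 14 of the 24 were lower (median -1.28), and the list median was -1.15 without the cells high in Sertoli cell markers.

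Genes of G2 and mitosis differed less inside set A than between its cells with Zbtb16 and those of sets B and C. Inside set A, 7 of 24 measured genes were lower and 0 higher by 1 or more, where 15.4% of all genes were lower. The median was -0.48, or -0.40 without cell 19 and -0.79 without the cells high in Sertoli cell markers. Over the sets 21 of 25 were lower (median -1.96), and the cells with Zbtb16 of set A were themselves lower than those of sets B and C in 21 of 25 (median -1.82), where 11.6% of all genes were lower and 10.2% higher. The mean level of the list lay between 0.84 and 2.56 in cells without Zbtb16, against between 1.58 and 2.53 with Zbtb16 in set A, with medians of 4.08 and 4.33 in sets B and C. Of the 16 cells, 9 were within or above the range of the 5 cells of set A. Mki67, which encodes the proliferation antigen Ki-67, was at 0, 1.25 and 29.1 RPM without Zbtb16, against 0, 0.223, 0.360, 1.08 and 3.16 RPM with Zbtb16 in set A. It averaged 55.03 and 77.3 RPM with Zbtb16 in sets B and C, so its difference was 0.96 inside set A and -2.09 over the sets. Top2a, the topoisomerase of dividing cells, had mean levels of 2.43 without Zbtb16, against 3.69, 6.28 and 7.10 in sets A, B and C. The S phase median between the same cells with Zbtb16, set A minus sets B and C, was -0.99, with 12 of 24 genes lower by 1 or more and 0 higher.

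Of the cell cycle exit genes, 2 of 12 measured were higher and 2 lower by 1 or more inside set A (median -0.26), where 7.11% of all genes were higher and 15.4% lower, so the lower share is that of all genes. Cdkn1c, an imprinted gene for the cyclin-dependent kinase inhibitor p57, had 0.587, 153 and 260 RPM without Zbtb16, against 17.2, 29.4, 48.02, 68.3 and 89.5 RPM with Zbtb16 in set A. Of the 16 cells, 11 were above all 5. Its difference was 1.10 inside set A (0.78 to 1.36), 1.496 without cell 19 and 2.13 over the sets, and its mean level with Zbtb16 was 5.47, 4.55 and 3.32 in sets A, B and C. Trp53, the gene of p53, was the other higher one (1.88), but over the sets it lay at 0.17 (-0.11 without cell 19), where set A with Zbtb16 had a mean level of 0.65 against 2.93 and 3.51 in sets B and C. The kinase inhibitor gene Cdkn1b (p27) lay at 0.98. Ccng1, a cyclin G gene, was lower by 1.14 inside set A and lay at -0.54 over the sets.

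Of 17 measured imprinted genes, 5 were higher and 2 lower by 1 or more inside set A (median 0.28), where 7.11% of all genes were higher and 15.4% lower. Over the sets 7 of 18 were higher and 0 lower (median 0.67), where 4.21% of all genes were higher and 12.6% lower. Besides Cdkn1c, Plagl1, a zinc finger gene, was listed at 0 in all 5 cells with Zbtb16 of set A and had 0, 0.749 and 44.5 RPM without Zbtb16, and Nnat, a membrane protein gene, differed by 1.39. Peg10, a gene of retrotransposon origin, had mean levels of 2.55 without Zbtb16, against 1.94, 1.15 and 0.50 with Zbtb16 in sets A, B and C. The list median inside set A rested on few cells: it was -0.04 when cell 4 was left out, -0.01 without the cells high in Sertoli cell markers and -0.09 with a Zbtb16 threshold of 5 RPM. Between cells with Zbtb16, set A minus sets B and C, it was 0.55, so part of the difference over the sets was present at Zbtb16 above 1 RPM.

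**Figure D4:**
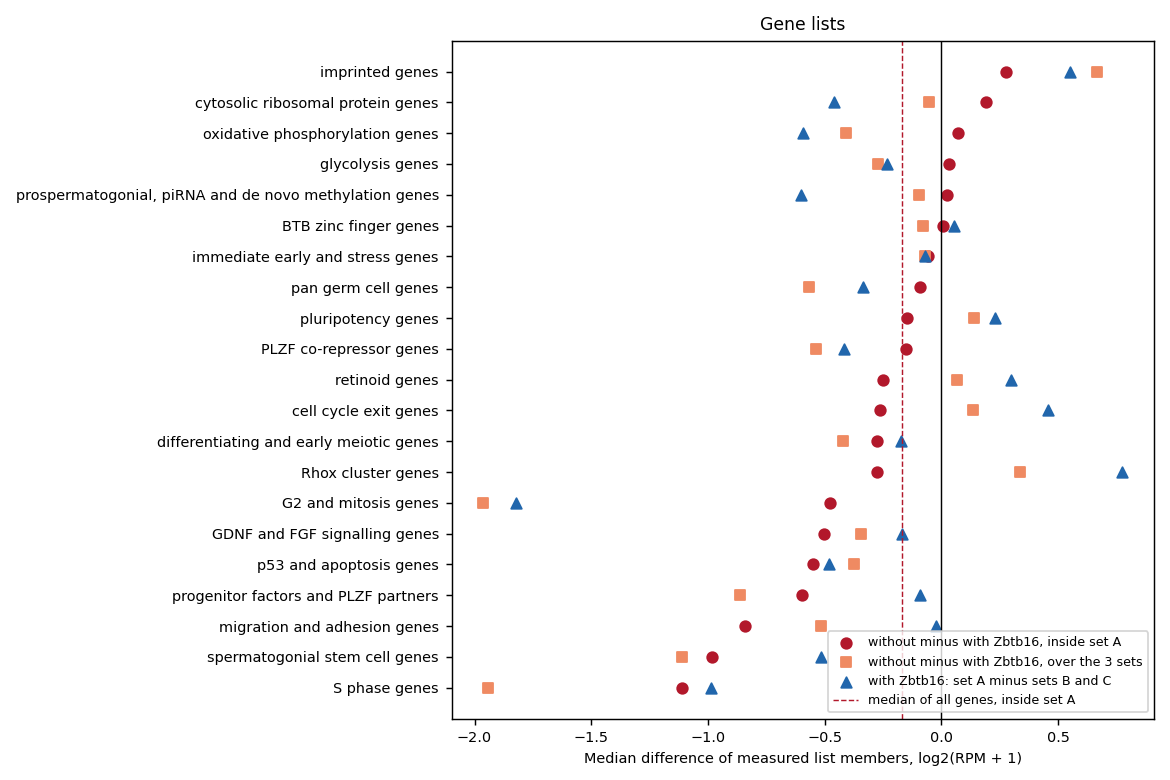
Median difference of the measured members of each gene list, in log2(RPM + 1), for cells without minus cells with Zbtb16 inside set A (red circles) and over the 3 sets (orange squares), and for cells with Zbtb16 of set A minus those of sets B and C (blue triangles). The solid line is 0 and the dashed line the median of all genes inside set A, -0.17. The S phase and stem cell lists lie at -1.11 and -0.98 inside set A, whereas the G2 and mitosis list has its lowest values in the 2 comparisons that involve sets B and C.

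Over the 3 sets, the 12 lowest genes added genes of DNA synthesis and chromosome structure to Gfra1, Mcm3, Ret and Spry4. Ncapg2, a condensin subunit, differed by -3.75 and had 0, 0.303 and 9.26 RPM without Zbtb16, against 1.44 to 28.002 RPM with Zbtb16 in set A. Rbm44, a germ cell RNA-binding protein, differed by -3.34, Rrm2, a subunit of ribonucleotide reductase, by -3.32, Mcm2 by -3.28, Top2a by -3.27 and Cenpf, a kinetochore protein, by -3.25. Tex13, a testis gene, differed by -3.25 and Tuba3b, an alpha tubulin gene with near-identical copies that could share reads, by -3.32. Rrm2, Tuba3b, Top2a and Cenpf differed by less inside set A, at -1.43, -1.22, -1.27 and -1.08, and the cells with Zbtb16 of set A were low in them too. For Tuba3b the mean level was 2.42 without Zbtb16, against 3.64, 6.23 and 7.36 with Zbtb16 in sets A, B and C.

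Among the highest 12 over the sets, Prtg, an immunoglobulin-domain receptor gene of embryonic cells, was above 1 RPM in 16 of 16 cells without Zbtb16, at 2.38, 72.2 and 140 RPM. It was above 1 RPM in 4 of 5, 5 of 12 and 19 of 36 cells with Zbtb16 of sets A, B and C. The difference was 2.99 over the sets and 1.35 inside set A, where it was -0.0015 with a Zbtb16 threshold of 5 RPM. Runx1t1, a transcriptional co-repressor, differed by 2.66, Adamts3, a procollagen protease, by 2.54, Cfi, a complement protease, by 2.47, Nrk, a kinase gene, by 2.45, and Sox11, a SOX factor, by 2.39. Slc6a6, a taurine transporter, and Gyg, the primer of glycogen, differed by 2.23 and 2.22. Adamts3, at 1.36 inside set A, lay at -0.59 there without the cells high in Sertoli cell markers. Several of these genes were part way up in the cells with Zbtb16 of set A. Nrk, for example, had mean levels of 3.99 without Zbtb16, against 3.20, 0.91 and 0.51 with Zbtb16 in sets A, B and C, and its difference inside set A was 0.79 (-0.0047 to 1.48).

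Of 18 measured migration and adhesion genes, 7 were lower by 1 or more and 0 higher inside set A (median -0.84, and -0.85 without cell 19), where 15.4% of all genes were lower. Over the sets 5 of 19 were lower (median -0.51), where 12.6% of all genes were. Mmp9, a matrix metalloproteinase, had 0, 0.145 and 9.50 RPM without Zbtb16, against 1.44, 2.68, 4.80, 10.6 and 11.1 RPM with Zbtb16 in set A, a difference of -1.90. Vcl, the focal adhesion protein vinculin, lay at -1.45 inside set A and at -0.32 over the sets. The list shares Itgb1, Itga6, Epcam, Cxcr4 and Cdh1 with the lists above, so the medians are not independent. Differentiating and early meiotic genes had 4 of 17 lower and 1 higher (median -0.28), with the cyclin gene Ccnd2 at -1.95 and Stra8, a retinoic acid target at the start of meiosis, at -1.76. Over the sets Ccnd2 lay at -2.08 and Stra8 at -0.85. Kit, the receptor of differentiating spermatogonia, lay at 0.45 and was above 1 RPM in 10 of 16 cells without Zbtb16, against 1 of 5 with Zbtb16 in set A.

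The remaining lists are set against the 15.4% of all genes lower, the 7.11% higher and the median of -0.17 inside set A. Pan germ cell genes had 4 of 19 lower and 2 higher (median -0.09), and pluripotency genes 2 of 10 lower and 0 higher (median -0.15). Retinoid genes had 3 of 14 lower and 2 higher (median -0.25), immediate early and stress genes 3 of 18 lower and 1 higher (median -0.06), and p53 and apoptosis genes 2 of 14 lower and 1 higher. The median of the last list, -0.55, was below that of all genes and was -0.08 without the cells high in Sertoli cell markers. Dusp1, a phosphatase of MAP kinases, was lower by 2.18 and Egr1, an immediate early factor, by 1.38. Glycolysis genes had 2 of 18 lower and 1 higher (median 0.03), with Hk2, a hexokinase, at -2.21. Oxidative phosphorylation genes had 1 of 27 lower and 1 higher (median 0.07), and 0 of 30 ribosomal protein genes differed by 1 or more (median 0.19). In these 2 lists and in glycolysis, pseudogene copies can take reads. Of 7 measured Rhox cluster genes, 1 was lower and 1 higher (median -0.28), and near-identical copies there can share reads too.

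Against WT P3 cells, which the Zbtb16 rule did not use, the 16 cells were lower in 698 of 4643 genes (15%) and higher in 304 (6.55%). Their Gfra1 mean level of 0.91 stood against 3.99 in set A and 4.14 in set B of WT P3, and it was above 1 RPM in 4 of 16 cells, against 16 of 16 and 55 of 55. Ret stood at 1.10 against 4.98 and 4.10, and Etv5 at 1.78 against 3.77 and 4.20. Dnmt3l, at 3.53, stood above 1.02 and 0.64, and it was above 1 RPM in 14 of 16 cells, against 7 of 16 and 16 of 55. Of 17 measured stem cell genes 11 were lower and 0 higher (median -1.26), where 9.49% of all genes at that level were lower and 7% higher. G2 and mitosis genes had 21 of 25 lower (median -1.94) and S phase genes 17 of 24 (median -1.38). Imprinted genes had 6 of 17 higher and 1 lower (median 0.67). These values share the 16 cells with the comparisons above and so are not a second sample of them.

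Cells without Zbtb16 also correlated less with each other than cells of sets B and C did. Across 5015 genes, the correlation of log2 levels between 2 cells had a median of 0.367 over the 120 pairs of cells without Zbtb16, against 0.376 over the 10 pairs of cells with Zbtb16 of set A, 0.501 over the 66 pairs of set B and 0.494 over the 630 pairs of set C. Without cell 19 the first value was 0.375 over 105 pairs. Pairs of a cell without Zbtb16 and a cell with Zbtb16 of set A had a median of 0.349. These correlations are across genes, share cells between pairs and were not adjusted for depth.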

How the data were processed

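Single Id4-eGFP+ cells were profiled by RNA-seq, 1 library a cell. The deposited table holds RPM (reads scaled to the library total) for 19642 rows in 193 cells, made by the authors; per the submitters' processing notes STAR 2.3.0 and HTSeq 0.6.1 were used with build mm10. The table is named TPM, but its values are whole multiples of 1 read per cell without any scaling by gene length (99.998% of values on average, 99.98% at the lowest, tolerance 0.001 RPM), so they were used as RPM, not as the TPM first assumed, and whole reads were recovered from them. Since RPM is not scaled by length, levels were compared between cells, not between genes. Left out were 84 spike-in rows and Rn45s. Mitochondrially encoded genes are not analysed here.

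A level is the mean of log2(RPM + 1) over the cells of a side; the pseudocount of 1 understates differences of low genes. A difference of 1 or more counted as higher or lower, among genes with a mean level of 2 or more (0.5 or more for list members). Each group is 1 sample, since cells are not replicates, so no count model or other test was run on the recovered reads; exact binomial intervals (Clopper-Pearson, 95%) cover counting error only, and a count of 0 was taken to allow 3 cells. The computation was tested on simulated data. Comparisons were run inside set A, over the 3 sets, between cells with Zbtb16 of different sets, and against WT P3 cells.

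Genes named are Zbtb16, Id4 and Rhox10, the 12 highest and 12 lowest differences of the first 2 comparisons with the same sign against each set (inside set A also when each cell with Zbtb16 was left out), and up to 2 at each end of every list. Outside that rule, Etv5, Cd9, Epcam, Itgb1, Foxo1, Etv4, Dusp6, Kit, Cdkn1b, Peg10 and Egr1 were chosen after their values were seen. The cells, the 29 lists (514 genes, 491 matched, 5 by an older symbol) and the rule were chosen with earlier results of these data known. Gene positions are from GENCODE M21 (GRCm38). Python 3.11.15, pandas 2.3.3, NumPy 2.4.6, SciPy 1.17.1 and matplotlib 3.10.9 were used. Alternatives changed the pseudocount, the scaling, the mean, the level filter and the Zbtb16 threshold, thinned the reads, or left out cells.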

Additional observations from a re-analysis of the deposited data

How the results depend on the processing

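No paired analysis was possible because the numbers in the titles only name cells and no test was run. Sign changes were rare among gene and list values of 1 or more as reported (9 of 2433 under alternatives) and more frequent among smaller ones (164 of 1337), such as Rhox10, Kit and Clu inside set A and Trp53 over the sets, for which no direction is given. With a Zbtb16 threshold of 0 RPM, Rad50 (0.46), Lgr4 (-0.76) and Sox9 (-0.46) changed sign inside set A and Wt1 (-0.15) over the sets, and with 5 RPM Prtg did inside set A (-0.0015). Without cells high in Sertoli cell markers, Adamts3 (-0.59) changed sign inside set A, and Wt1 (-0.18) and Clu (-0.30) over the sets. With the log2 of mean values Hpcal1 did over the sets (0.14). The causes were not tested. The 2 alternatives that leave out cell 19, or cells 19 and 4, were chosen after seeing the data.

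The counts of genes depended on the settings, including the level filters, which cannot move the values of named genes. Inside set A, 261 genes were higher and 1060 lower as reported. A pseudocount of 10 gave 30 and 149, scaling to reads on genes alone 1101 and 2618, a mean level of at least 4 gave 34 and 199, and no filter on level 773 and 1678. There, 784 were higher with the log2 of mean values and 700 without the cells high in Sertoli cell markers, and 464 were lower with a Zbtb16 threshold of 0 RPM. Leaving out 1 of the 5 cells with Zbtb16 gave 257 to 338 higher and 1116 to 1335 lower. Over the sets, 145 were higher and 973 lower as reported. A pseudocount of 10 gave 23 and 124, rescaling to stably detected genes 356 and 553, reads on genes alone 890 and 2247, the log2 of mean values 749 and 633, and a mean level of at least 4 gave 12 and 221. Higher genes over the sets numbered 450 with no filter on level, 278 and 79 with Zbtb16 thresholds of 0 and 5 RPM, 232 after thinning and 512 without the cells high in Sertoli cell markers.

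Depth limits the low genes: 1 read was worth 0.103 to 0.894 RPM in these cells, so a gene with no read may still be expressed at a few RPM or less. With a threshold of 0 RPM, which leaves 8 cells without and 13 with Zbtb16 in set A, the differences inside set A were -1.43 for Gfra1, -1.38 for Ret, 0.87 for Prkcd and 1.88 for Dnmt3l.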
